A study of Mus musculus with 6 samples.

Results

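The RNA levels of 10 genes that set the pace of the G1 phase were compared between *Ltbr*-/- and Ly5.1 hematopoietic stem cells (HSCs). The genes encode the D-type cyclins *Ccnd1*, *Ccnd2* and *Ccnd3*, the E-type cyclin *Ccne1*, the cyclin-dependent kinases *Cdk2*, *Cdk4* and *Cdk6*, and the kinase inhibitors *Cdkn1b*, *Cdkn1c* and *Cdkn2c*. They were chosen by name and not by their measured values, but with earlier results of these data known. All 10 were found among the 26216 gene symbols listed for each sample, and all 10 belonged to the 13108 symbols with the highest mean over the samples, which were tested.

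*Ltbr* encodes the lymphotoxin-β receptor, a member of the tumor necrosis factor receptor superfamily. Long-term and short-term HSCs (LT/ST-HSCs) were purified from bone marrow of mixed chimeras at week 6 after transplantation. They were sorted as Lin-, Annexin-V-, sca-1+, c-kit+, CD150+ and CD48- cells. The chimeras had been made by transplanting *Ltbr*-/- and Ly5.1 Lin-sca-1+c-kit+ cells (LSKs) together into Ly5.1/Ly5.2 recipients after lethal irradiation, so that transplantation, host and time were shared by both groups. The cells of 6 chimeras were pooled to 3 *Ltbr*-/- and 3 Ly5.1 replicates, and RNA was sequenced as stranded mRNA libraries. *Ltbr*-/- cells came from homozygous whole-body knockouts and carried the CD45.2 allele. Ly5.1 control cells had an intact *Ltbr* and carried the CD45.1 allele, by which the cells of the shared recipients were told apart. The labels give donor ages of 13, 10 and 10 to 13 weeks for *Ltbr*-/- replicates 1, 2 and 3, and of 7 to 13 weeks for each Ly5.1 replicate. Genotype, CD45 allele and, in part, donor age differed together and cannot be told apart.

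D-type cyclins bind *Cdk4* and *Cdk6* when growth signals reach a cell, and these kinases begin the phosphorylation of the retinoblastoma family. Cyclin E with *Cdk2* completes it, which frees E2F factors to switch on the genes of DNA replication. Inhibitors of the INK4 family, such as the product of *Cdkn2c*, bind *Cdk4* and *Cdk6*. The Kip proteins encoded by *Cdkn1b* and *Cdkn1c* hold cyclin-kinase complexes inactive and are known for keeping adult HSCs in quiescence.

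Values are given as the deposited signal, a linear, normalized and positive expression value. A difference is given on the log2 scale as *Ltbr*-/- minus Ly5.1, with its standard error (SE), and was called when the adjusted p from limma over all tested genes was under 0.05. *Ltbr* had a signal of 24.2, 26.4 and 23.1 in *Ltbr*-/- replicates 1 to 3 and of 564, 549 and 522 in Ly5.1 replicates 1 to 3, a log2 difference of −4.47 (SE 0.08, adjusted p = 2.15e-32 from limma). Of the 13108 tested genes, 14.8% were called, with 1388 higher and 548 lower in *Ltbr*-/- cells. After quantile normalization these counts were 1246 and 914. All 12 HSC markers, among them *Kit*, *Procr* and the CD150 gene *Slamf1*, were among the tested genes, and none of the 5 T cell markers was. *Cd48*, which the sort selects against, had a signal of 20.1 to 28.9. It was 1 of 3 tested markers of lymphoid-primed progenitors and was not called. The others were *Flt3*, at 705 to 927 and called lower in *Ltbr*-/- cells, and *Dntt*, which was not called. Of the HSC markers, *Gata2* was called higher and *Ly6a* and *Cd34* lower, and the summed signal of the 12 was 18681 to 19149 in *Ltbr*-/- and 19830 to 20687 in Ly5.1 cells. The 7 neutrophil markers were all lower in *Ltbr*-/- cells, with a summed signal of 38817 to 39500 against 50590 to 54160. The summed signal of the 5 mast cell and basophil markers was 7064 to 7455 against 3396 to 4001, with *Cma1* and *Cpa3* called higher. The other 3, *Mcpt8*, *Fcer1a* and *Ms4a2*, were at −0.22, −0.10 and −0.04 and were not called, and the mean of *Cma1* alone was 5470 ± 285 against 2195 ± 225 (SD, n = 3). The summed signal of the 6 erythroid markers was 4736 to 4916 against 3417 to 3715. Of these *Hba-a1* was called higher, with a mean of 2129 ± 130 against 1083 ± 199 (SD, n = 3). *Gata1*, *Klf1*, *Epor*, *Tfrc* and *Hbb-b1* were at 0.20, 0.13, 0.11, 0.10 and 0.04 and were not called. Of 5 macrophage markers 2 were called higher and 1 lower, and of 4 tested B cell markers 1 higher and 2 lower. Of 5 megakaryocyte markers 1, *Itga2b*, was called higher and 1, *Pf4*, lower. The part of these other cell types in the values below was not tested, and in bulk RNA fewer cells of a type and less RNA per cell cannot be told apart.

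None of the 10 G1 genes was called. The 0 of 10 calls by limma stand against 14.8% of all tested genes called in either direction, 10.6% called higher and 4.18% called lower. With a fold of at least 1.5 added to the rule, 2.78% of all tested genes and 0 of the 10 were called. Before adjustment, limma gave 1 of the 10, *Cdk2*, a p under 0.05, and a linear model without moderation called 0 of 10 and gave 0 of 10 unadjusted p under 0.05. The groups did not overlap for 1 of 10 genes, again *Cdk2*, against 30.4% of all tested genes. The median log2 difference of the 10 genes was 0.02 and that of all tested genes −0.01, and 6 of the 10 estimates were positive. These differences are relative to the bulk of the tested genes, since centring on 80 ribosomal protein genes moved the median of all tested genes to −0.89 and brought the 6 positive estimates below 0. The 95% confidence intervals of the 10 differences lay between −0.42 and 0.36, inside the ±0.58 that corresponds to a fold of 1.5, and their median width was 0.38. These intervals describe the deposited values, which have the form of 2 raised to a regularized logarithm. Such a logarithm draws weak genes towards their mean, so the intervals do not bound the differences of weak genes before that step. Small differences were not resolved with 3 replicates per genotype.

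**Figure D1:**
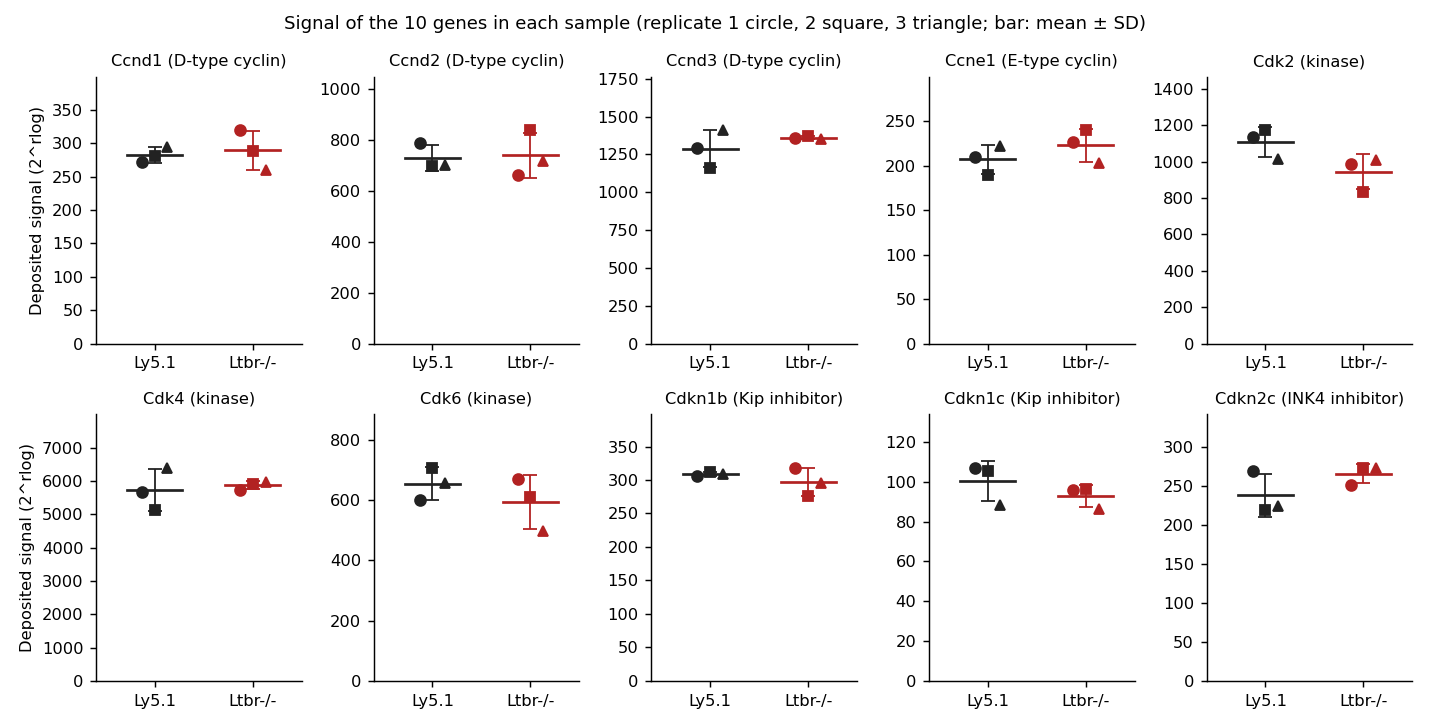
Deposited signal (linear, from 0) of each of the 10 genes in the 3 Ly5.1 (black) and 3 *Ltbr*-/- (red) samples, with circles, squares and triangles for replicates 1, 2 and 3 and bars for the mean ± SD. The points of the genotypes are interleaved or share a range for all genes but *Cdk2*, where the highest *Ltbr*-/- value is 1010.4 and the lowest Ly5.1 value 1012.

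Per transcript length, *Cdk4* RNA was the most abundant of the 10 and *Cdkn1c* RNA the least. Signal divided by the length of the longest coding transcript in kb gave 2860 ± 57.1 in *Ltbr*-/- and 2794 ± 308 in Ly5.1 cells for *Cdk4* (SD, n = 3 each, here and below). *Ccnd3* followed with 644 ± 5.29 and 609.9 ± 58.3 per kb. *Cdk2* came next with 392 ± 39.7 and 459.8 ± 34.7 per kb. The ranges of these 3 genes over the 6 samples overlapped neither each other nor those of the genes below. The signal per kb of *Ccnd2* was 117 ± 14.2 in *Ltbr*-/- and 115 ± 8.23 in Ly5.1 cells. That of *Ccne1* was 111 ± 9.38 and 104 ± 8.16. That of *Cdkn2c* was 108 ± 5.11 and 96.4 ± 11.2. *Ccnd2* and *Ccne1*, and *Ccne1* and *Cdkn2c*, overlapped as neighbours in this order, whereas *Cdkn2c* and *Ccnd1* did not. The lower 4 formed a chain of overlapping neighbours. *Ccnd1* had 77.4 ± 7.84 in *Ltbr*-/- and 75.6 ± 3.13 per kb in Ly5.1 cells, and *Cdkn1b* 65.2 ± 4.62 and 67.9 ± 0.69. *Cdk6* had 51.4 ± 7.71 and 56.7 ± 4.71 per kb, and *Cdkn1c* 48.8 ± 2.99 and 52.8 ± 5.38. The order in the middle depended on the length used. Per kb of coding sequence the first 4 genes and the last kept their places, while *Cdk6*, whose longest coding transcript has 11525 bases, moved from place 9 to 5 and *Ccne1* from 5 to 9.

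**Figure D2:**
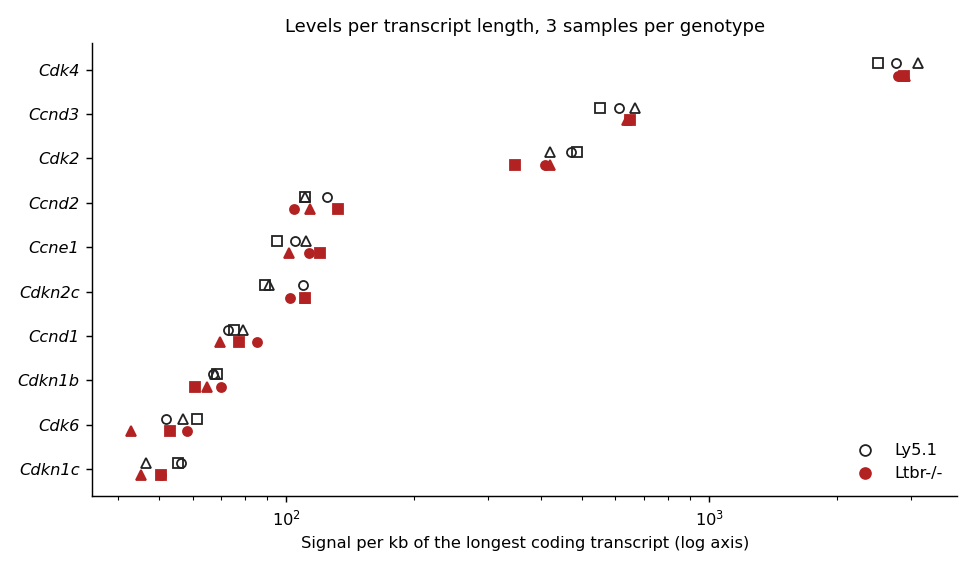
Signal per kb of the longest coding transcript (log axis) of the 10 genes in the 3 Ly5.1 (open black symbols) and 3 *Ltbr*-/- (filled red symbols) samples, ordered by the mean, with symbol shapes for replicates as circles (1), squares (2) and triangles (3). *Cdk4*, *Ccnd3* and *Cdk2* stand clear of the other 7, whose signals per kb lie close together.

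The D-type cyclins showed no difference between the genotypes beyond the replicate spread. They are the growth-signal sensors of G1, and *Ccnd3* was the predominant form. Its share of the summed D-type cyclin signal per kb was 76.8% ± 1.10 in *Ltbr*-/- and 76.1% ± 1.60 in Ly5.1 cells, with 13.9% ± 1.45 and 14.5% ± 1.34 for *Ccnd2* and 9.23% ± 0.90 and 9.46% ± 0.66 for *Ccnd1*. Per kb of coding sequence the shares were 56.9% ± 1.82 and 55.8% ± 2.35 for *Ccnd3*, 31.1% ± 2.66 and 32.0% ± 2.34 for *Ccnd2* and 11.98% ± 1.31 and 12.2% ± 0.78 for *Ccnd1*. *Ccnd1* (chr7:144929931-144939831, GRCm38.p6) had a signal of 319, 288 and 261 in *Ltbr*-/- replicates 1 to 3 and of 272, 281 and 295 in Ly5.1 replicates 1 to 3. Both the highest and the lowest value were from *Ltbr*-/- samples, so that the Ly5.1 samples lay within the range of the *Ltbr*-/- samples. The difference was 0.03 (SE 0.10, adjusted p = 0.880 from limma), with a 95% interval from −0.16 to 0.23. Leaving out single samples moved it between −0.04 and 0.10, and it was negative without *Ltbr*-/- replicate 1. *Ccnd2* (chr6:127125162-127152188) had a signal of 662, 838 and 719 in *Ltbr*-/- and of 790, 699.7 and 700.5 in Ly5.1 replicates. Here too the extremes were both *Ltbr*-/- samples. The difference was 0.01 (SE 0.10, adjusted p = 0.952 from limma; interval −0.18 to 0.21), and its sign changed after quantile normalization and when *Ltbr*-/- replicate 2 or Ly5.1 replicate 2 or 3 was left out. *Ccnd3* (chr17:47505051-47599689) had a signal of 1362, 1372 and 1349 in *Ltbr*-/- and of 1295, 1163 and 1409 in Ly5.1 replicates. The *Ltbr*-/- samples were nearly equal and fell between the Ly5.1 samples, of which replicate 2 was the lowest and replicate 3 the highest. The difference was 0.08 (SE 0.09, adjusted p = 0.592 from limma; interval −0.09 to 0.26).

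*Ccne1* and *Cdk2* act together at the end of G1. The signal of *Ccne1* (chr7:38097984-38107490) was 226, 239.6 and 203 in *Ltbr*-/- and 209.5, 189.9 and 222 in Ly5.1 replicates. The highest value was an *Ltbr*-/- and the lowest a Ly5.1 sample, and the ranges overlapped. The difference was 0.10 (SE 0.09, adjusted p = 0.525 from limma; interval −0.09 to 0.30). *Cdk2* (chr10:128697938-128705051) showed the largest estimate of the 10 and the only separation of the genotypes. Its signal was 985, 834 and 1010.4 in *Ltbr*-/- and 1136, 1171 and 1012 in Ly5.1 replicates. Every *Ltbr*-/- sample was below every Ly5.1 sample, but *Ltbr*-/- replicate 3 and Ly5.1 replicate 3 were almost equal. The mean was 943 ± 95.4 in *Ltbr*-/- and 1106 ± 83.4 in Ly5.1 cells, a log2 difference of −0.23 (SE 0.09; interval −0.42 to −0.04) or −14.9% (interval −25.2% to −3.03%). The adjusted p from limma was 0.0892, and the exact two-sided permutation test gave p = 0.1, the smallest that 3 against 3 samples allow. Whether *Cdk2* was called depended on single samples. Without Ly5.1 replicate 3 the difference was −0.29 and was called (adjusted p = 0.0362 from limma), and without *Ltbr*-/- replicate 2 it was −0.15 (adjusted p = 0.418 from limma), which were the lowest and the highest adjusted p over 15 alternatives, counted here and below without the centring on ribosomal protein genes.

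The promoter window of *Cdk2* was the only one of those read for these genes that held a match to the E2F motif, the letters TTTCCCGC, TTTGGCGC, TTTCGCGC or TTTGCCGC on either strand. RefSeq (GRCm38.p6) gave 9 windows of the 250 bases before an annotated start for 7 of the 10 genes. Of all 32851 windows, 1.86% held this motif. *Ccnd1*, *Ccnd2* and *Cdkn1c* had no window, so their promoters were not read. The window of *Cdk6* and a further window each of *Ccnd3* and *Cdkn2c* lay inside the gene. Annotated exons covered 105 bases of the *Cdk2* window and all 250 of the *Cdkn2c* window at the gene start. The longest part of the *Cdk2* window free of annotated exons was the 128 bases next to the start. The match, the reverse complement of TTTCCCGC, lay beyond that part, 133 to 140 bases before the start of *Cdk2*, in the stretch chr10:128705174-128705201. It is printed on the minus strand, which is that of the gene, and is shown because E2F factors act downstream of the kinase itself, with the match in capitals and 10 bases on each side.
Cdk2 site: accaggaactGCGGGAAAgttgtgcagc
A match of letters is a description and was not tested for binding. By the same reading, the GC box GGGCGG was found in 7 of the 9 windows, from 6 genes, and in 32.7% of all windows. The letters GTAAACA of the FOXO motif were found for *Ccnd3* alone (3.17% of all windows), and neither the CHR letters TTTGAA or TTCGAA (17.1%) nor the κB consensus (7.25%) was found in any of the 9.

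The tested genes with the profile most like that of *Cdk2* over the 6 samples were *Whsc1l1* (r = 0.998), *Ssfa2* (r = 0.997) and *Sec31a* (r = 0.990). None of these 3 was called, with log2 differences of −0.12, −0.15 and −0.18. They were picked as the highest r among all tested genes over only 6 samples, and 226 tested genes had r over 0.9 with *Cdk2*. A link of these genes to *Cdk2* was not tested.

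*Cdk4* and *Cdk6* are the partners of the D-type cyclins, and *Cdk4* RNA dominated. How far it did so depended on the length used, since the longest coding transcript of *Cdk6* is mostly noncoding. Per kb of coding sequence the signal of *Cdk4* was 10.8 ± 1.90 times that of *Cdk6* in *Ltbr*-/- and 9.50 ± 1.46 times in Ly5.1 cells. Per kb of transcript it was 56.6 ± 9.92 and 49.6 ± 7.61 times. *Cdk4* (chr10:127063535-127067288) had a signal of 5738, 5916 and 5959 in *Ltbr*-/- and of 5668, 5141 and 6399 in Ly5.1 replicates. The *Ltbr*-/- samples lay close together inside the range of the Ly5.1 samples, as for *Ccnd3*. The difference was 0.04 (SE 0.07, adjusted p = 0.787 from limma; interval −0.11 to 0.19). Its sign changed, to −0.14, after quantile normalization and, to −0.04, without Ly5.1 replicate 2. *Cdk6* (chr5:3341004-3531008) had a signal of 671, 611 and 496 in *Ltbr*-/- and of 598, 707 and 657 in Ly5.1 replicates. The lowest sample was *Ltbr*-/- replicate 3, while *Ltbr*-/- replicate 1 was second only to Ly5.1 replicate 2. The difference was −0.15 (SE 0.10, adjusted p = 0.356 from limma; interval −0.36 to 0.06), and it was −0.03 without *Ltbr*-/- replicate 3.

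The window before *Cdk4*, the most abundant of the 10, is shown for its 4 matches to the E-box CACGTG, the letters bound by Myc with Max. At least 1 such match was in 6.02% of all windows and at least 4 were in 7 of the 32851 windows (0.0213%). *Cdk6* had 1 match in its window, and the other 5 genes with a window had none. The stretch is chr10:127063285-127063533 on the plus strand (GRCm38.p6, RefSeq), with the E-boxes in capitals.
Cdk4 promoter: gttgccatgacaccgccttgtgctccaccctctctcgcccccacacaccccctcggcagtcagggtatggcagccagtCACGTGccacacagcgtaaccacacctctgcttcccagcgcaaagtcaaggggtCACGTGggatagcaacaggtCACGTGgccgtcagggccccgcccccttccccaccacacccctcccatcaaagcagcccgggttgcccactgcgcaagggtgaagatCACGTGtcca
The data hold no measurement of factor binding at these letters.

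The inhibitors *Cdkn1b*, *Cdkn1c* and *Cdkn2c* did not differ between the genotypes by more than the replicate spread either. *Cdkn1b* (chr6:134920401-134925525) had a signal of 318, 276 and 296 in *Ltbr*-/- and of 306, 312 and 308 in Ly5.1 replicates. The Ly5.1 samples were nearly equal, and *Ltbr*-/- samples lay on both sides of them. The difference was −0.06 (SE 0.09, adjusted p = 0.733 from limma; interval −0.25 to 0.13). *Cdkn1c* (chr7:143458339-143461059), an imprinted gene, was the weakest of the 10, with 96.1, 96.2 and 86.3 in *Ltbr*-/- and 107, 105 and 88.6 in Ly5.1 replicates. Replicate 3 was the lowest sample in each genotype, and Ly5.1 replicate 3 fell within the range of the *Ltbr*-/- samples. The difference was −0.11 (SE 0.08, adjusted p = 0.421 from limma; interval −0.28 to 0.06). *Cdkn2c* (chr4:109660876-109666756) had a signal of 252, 274 and 273 in *Ltbr*-/- and of 270.2, 219.9 and 224 in Ly5.1 replicates. A pair of Ly5.1 samples was below all *Ltbr*-/- samples, but Ly5.1 replicate 1 was not. The difference of 0.17 was the largest positive estimate of the 10 (SE 0.10, adjusted p = 0.271 from limma; interval −0.03 to 0.36).

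**Figure D3:**
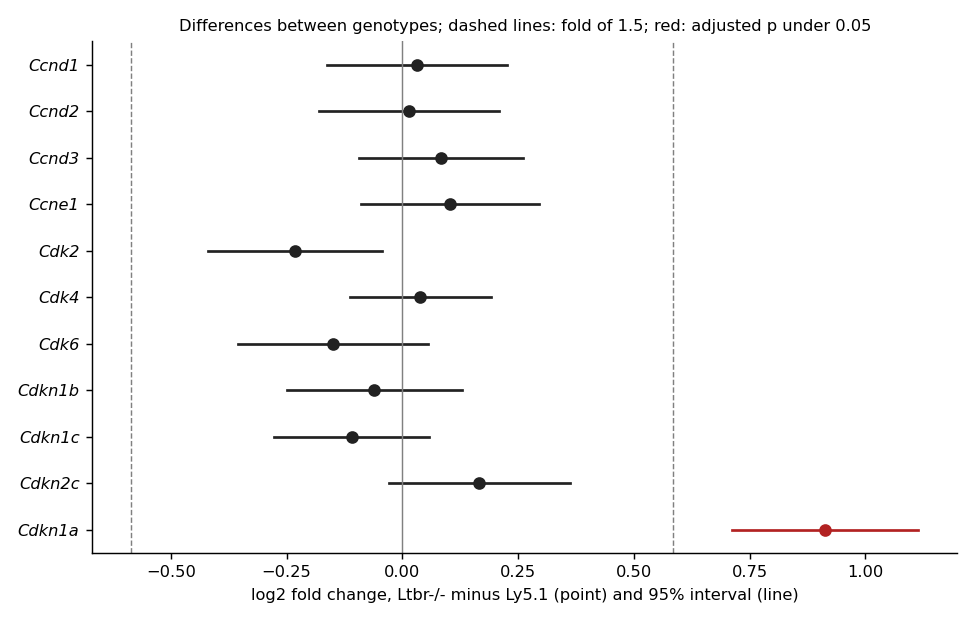
Log2 difference between *Ltbr*-/- and Ly5.1 cells (point) with its 95% confidence interval from limma (line) for the 10 genes and, in red, *Cdkn1a*, whose adjusted p is under 0.05. Dashed lines mark a fold of 1.5 (±0.58), and the intervals of all 10 genes lie inside them, between −0.42 and 0.36. The intervals describe the deposited values, in which differences of weak genes are understated.

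Sample order was shared by several of the genes. Among the Ly5.1 samples, replicate 2 was the lowest and replicate 3 the highest for *Ccnd3*, *Ccne1* and *Cdk4*, whereas for *Cdk2* replicate 2 was the highest and replicate 3 the lowest. The log2 differences with each sample left out in turn reflected this, since leaving out Ly5.1 replicate 3 gave the lowest value for *Cdk2* (−0.29) and the highest for *Ccnd3* (0.15) and *Cdk4* (0.12).

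**Figure D4:**
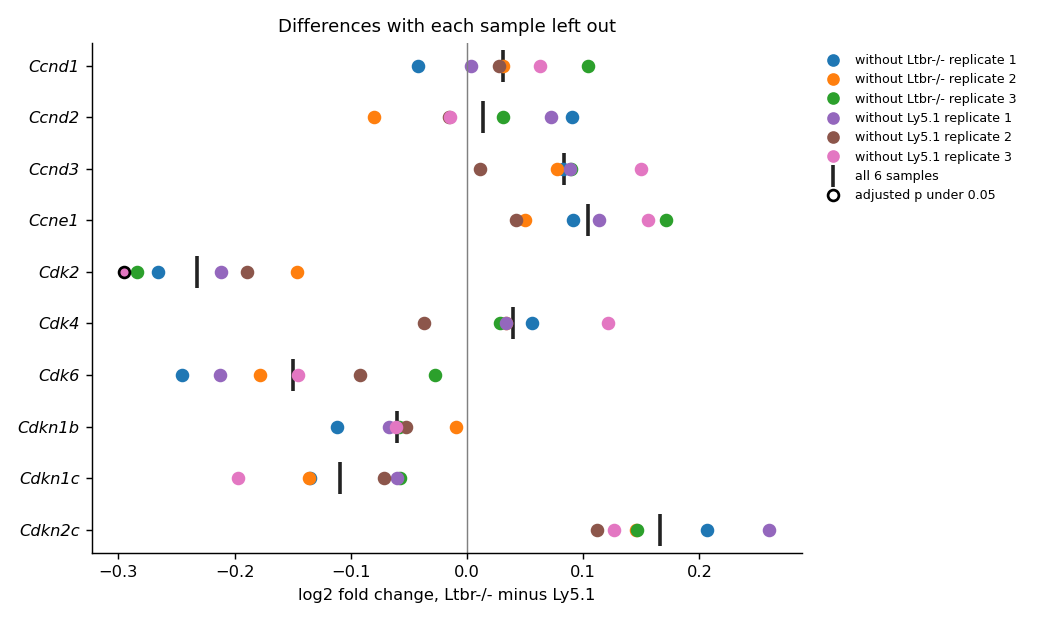
Log2 difference between *Ltbr*-/- and Ly5.1 cells of the 10 genes from all 6 samples (black bar) and with each sample left out in turn (colored points), ringed where the adjusted p was under 0.05. The only ringed point is *Cdk2* without Ly5.1 replicate 3 (−0.29), and points of *Ccnd1*, *Ccnd2* and *Cdk4* fall on both sides of 0.

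*Ccnd2* and *Cdkn1b* lie on the chromosome of *Ltbr*, where DNA of the strain in which the knockout was made can persist, and effects of that DNA and of the deletion cannot be told apart there. *Ccnd2* is 1.82 Mb and *Cdkn1b* 9.61 Mb from *Ltbr* (chr6:125306571-125313885). Within 10 Mb of *Ltbr*, 18 of 156 tested genes were called higher and 5 lower, or 14.7%, with a median log2 difference of −0.02. Whether counting used the strand of the reads is not given in the sources used here, and exons of some of the 10 genes overlap those of genes on the other strand. Such overlap covered 30.7% of the exonic bases of *Cdkn1c*, 23.4% of those of *Ccnd1*, 19.7% of those of *Cdk4*, 7.86% of those of *Ccnd2*, and 0.547% to 4.11% in *Ccnd3*, *Cdk2* and *Cdk6*. The gene opposite *Cdk4*, *Tspan31*, had a mean signal of 456 in *Ltbr*-/- and 417 in Ly5.1 cells. *Ccne1*, *Cdkn1b* and *Cdkn2c* had no such overlap. Of the stretches of 76 bases, the length of a read, those found in another gene on the same strand were at most 0.371% for any of the 10. With either strand counted, the share was 22.0% for *Cdkn1c*, 20.6% for *Ccnd1*, 15.7% for *Cdk4*, 5.49% for *Ccnd2*, 3.48% for *Ccnd3*, 2.25% for *Cdk6* and 0 for the other 4.

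Outside the 10 genes, the inhibitor *Cdkn1a* was higher in *Ltbr*-/- cells. *Cdkn1a*, a Cip/Kip gene known as a target of p53, had a signal of 816, 967 and 1009 in *Ltbr*-/- and of 515, 431 and 539 in Ly5.1 replicates, with no overlap and a difference of 0.91 (SE 0.10, adjusted p = 3.35e-09 from limma). It was not called after centring on ribosomal protein genes, with a difference of 0.04 (adjusted p = 0.778 from limma), or without moderation of the variance (adjusted p = 0.0543), and the other 14 alternatives kept the call. Of 4 other inhibitors listed, 3 were tested, too few to compare with the 10.6% of all tested genes called higher. Of these 3, 2 were called, both higher. The second was *Cdkn2a*, an INK4 gene, with 83.4, 74.2 and 78.3 in *Ltbr*-/- against 64.1, 66.6 and 71.9 in Ly5.1 replicates and a difference of 0.22 (SE 0.07, adjusted p = 0.0346 from limma). The groups did not overlap, but 7 of 14 alternatives kept the call, and the adjusted p ranged from 0.0161 to 0.191. The call was lost without *Ltbr*-/- replicate 1 or 3 (adjusted p = 0.166 and 0.0909 from limma) or Ly5.1 replicate 1 or 2 (0.147 and 0.1002). It was also lost without a filter on low values (adjusted p = 0.0646 from limma), without the variance trend (0.0748) and without moderation (0.191). *Cdkn2d* was at 0.09 and was not called, and *Cdkn2b* was listed at 1 in all samples.

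Upstream and downstream of the 10 genes, 73 genes in 7 lists were examined. Of these, 70 were tested, and 6 were called higher and 1 lower, or 10% against 14.8% of all tested genes. Their median log2 difference was −0.03 against −0.01, and 31 of 70 estimates were positive. The groups did not overlap for 24 of the 70 (30.4% of all tested genes). None of 8 tested other cyclins, kinases and subunits of the kinase that activates them was called, and *Cdk1*, the kinase of mitosis, was at 0.20 (adjusted p = 0.112 from limma). Among 13 pocket proteins, E2F factors and their DP partners, the called gene was *Rbl1*, a pocket protein that represses E2F targets. Its signal was 1254, 1216 and 1317 in *Ltbr*-/- against 1418, 1538 and 1561 in Ly5.1 replicates, below them in every sample, and it fell by 0.25 on the log2 scale (SE 0.08, adjusted p = 0.0376 from limma). The call was kept in 8 of 15 alternatives, and the adjusted p ranged from 0.0156 to 0.145. It was lost without *Ltbr*-/- replicate 1, 2 or 3 (adjusted p = 0.0960, 0.145 and 0.0567 from limma) or Ly5.1 replicate 2 or 3 (0.0984 and 0.0937). The call was also lost without a filter on low values (adjusted p = 0.0587 from limma) and without moderation (0.105). The list had a median of −0.15, and 4 of its 13 estimates were positive. Among 6 tested genes of the MuvB complex and its partners, which repress or activate cell cycle genes, *Lin37* was higher, at 492, 515 and 479 against 435, 360 and 395 (0.33, SE 0.09, adjusted p = 0.0154 from limma). The groups did not overlap, and 12 of 15 alternatives kept the call, which was lost without *Ltbr*-/- replicate 2 (adjusted p = 0.0694 from limma) or Ly5.1 replicate 2 (0.106) and without moderation (0.143). Among 12 genes of cyclin and inhibitor turnover and of kinase phosphatases, *Fbxo31*, an F-box protein reported to direct cyclin D1 to degradation, was higher, at 712, 835 and 926 against 737, 523 and 687 (0.35, SE 0.11, adjusted p = 0.0219 from limma). Its groups overlapped, and 9 of 15 alternatives kept the call. It was lost without *Ltbr*-/- replicate 2 or 3 or Ly5.1 replicate 2 (adjusted p = 0.0634, 0.184 and 0.246 from limma), without a filter on low values (0.0573), without the variance trend (0.0964) and without moderation (0.371).

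No call was made among the 18 E2F target genes of S phase entry, such as the Mcm helicase subunits, *Pcna* and *Rrm2*. Their median log2 difference was −0.10, and 6 of 18 estimates were positive. *Mcm6* was at −0.16 (adjusted p = 0.103 from limma). Among 10 genes whose RNA peaks in S, G2 and M phase, 2 were called, both higher, or 20% against 14.8% of all tested genes. Of the 10 estimates 8 were positive, with a median of 0.15. *Cdc20*, an activator of the anaphase-promoting complex, had a signal of 2378, 2487 and 2605 in *Ltbr*-/- against 1831, 1639 and 1975 in Ly5.1 replicates (0.46, SE 0.08, adjusted p = 8.30e-05 from limma). *Ccnb2*, a mitotic cyclin, had 2834, 2948 and 3115 against 2287, 2543 and 2462 (0.29, SE 0.08, adjusted p = 0.00992 from limma). In both, every *Ltbr*-/- sample was above every Ly5.1 sample. The call was kept in 14 of 15 alternatives for *Cdc20* and in 11 of 15 for *Ccnb2*. For *Ccnb2* it was lost after quantile normalization (adjusted p = 0.0568 from limma), without moderation (0.0999), and without *Ltbr*-/- replicate 3 (0.0785) or Ly5.1 replicate 1 (0.0667). *Mki67*, a general marker of cycling cells, was at −0.11 (adjusted p = 0.232 from limma). *Cdkn1a* was the 1 gene of the 70 that was called with a fold of at least 1.5. After quantile normalization 15 of the 70 were called, 5 higher and 10 lower. The same scaling called 2160 of all 13108 tested genes, 1246 higher and 914 lower.

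**Figure D5:**
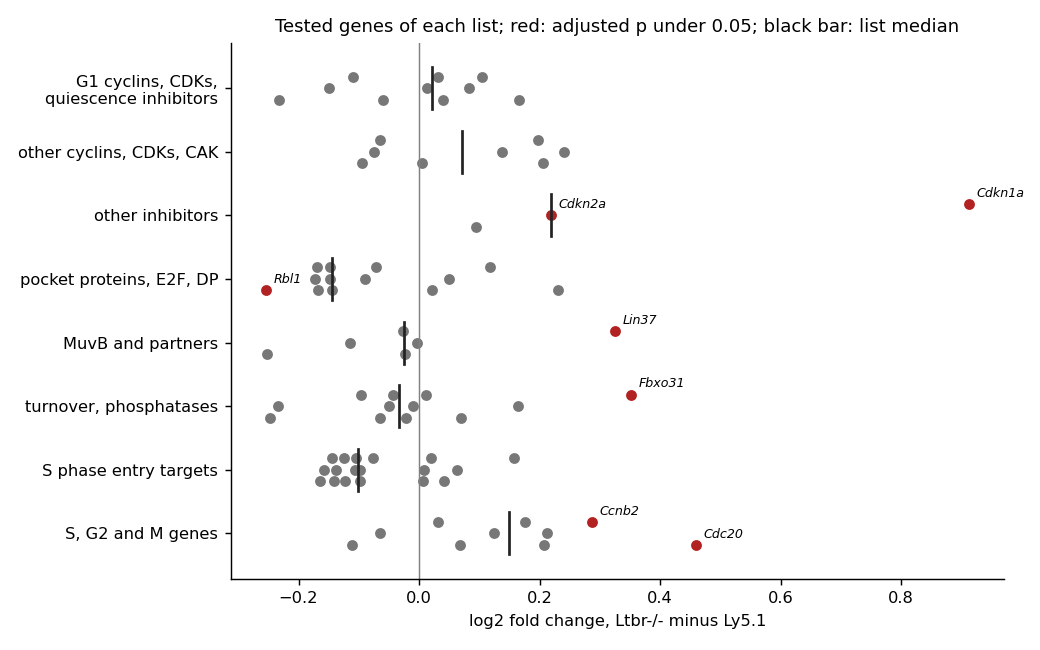
Log2 difference between *Ltbr*-/- and Ly5.1 cells of each tested gene (point) of the 10 genes and of the 7 other lists, with red points for an adjusted p under 0.05 and black bars for the median of each list. The 7 red points are *Cdkn1a*, *Cdkn2a*, *Lin37*, *Fbxo31*, *Ccnb2* and *Cdc20*, which were higher, and *Rbl1*, which was lower, and none belongs to the 10 genes in the top row.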

How the data were processed

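RNA of 3 *Ltbr*-/- and 3 Ly5.1 LT/ST-HSC samples was analysed, grouped by the sample labels. The authors used SeqMan NGen for assembly and ArrayStar for quantification, and deposited 1 normalized signal per gene and sample. The methods describe a regularized logarithm, and the values have the form of 2 raised to such a logarithm. The build is GRCm38 (mm10) per the submitters' processing notes, and the annotation and strand setting are not given in the sources used here. Such a logarithm draws weak genes towards their mean, so their differences are understated. No counts were used, so depth is unknown and no counting interval or detection limit could be given. Precision rests on 3 pooled replicates per genotype. The p-values of the main limma fit weigh each difference against the spread between these samples, moderated with the spread of all tested genes.

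Of 26595 entries per sample, 379 were repeated symbols, of which the 1 with the highest mean was used, and 14 symbols had been turned into day numbers by a spreadsheet and could not be matched. Of the 26216 symbols, 9034 had the same value in every sample. The upper 50% by mean were tested on log2 of the signal, without a pseudocount, with limma 3.58.1 in R 4.3.3 (lmFit, then eBayes with a mean-variance trend) and Benjamini-Hochberg adjustment. The fit was tested on simulated data. Single genes were also compared with exact two-sided permutation tests. Levels were compared between genes per kb of the longest coding transcript of GENCODE M21. Positions and promoter windows were from RefSeq tables for GRCm38.p6. Python 3.11.15 and pandas 2.3.3 were used.

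The genes and lists were chosen with earlier results of these data known, so no count over them is independent evidence. All 10 G1 genes are named, with *Ltbr*, every called gene of the other lists up to 3 per direction and list, and the 3 genes correlated best with the G1 gene of the largest difference. Marker genes and uncalled genes of the lists were named after their values were seen. Replicate numbers were not taken as pairs. Both genotypes came from shared recipients, so samples may be paired by host, but the labels do not give such pairs. Alternatives were other scalings, filters, variance models, a pseudocount of 1, the replicate block, and leaving out each sample.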

Additional observations from a re-analysis of the deposited data

How the results depend on the processing

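None of the 10 G1 genes was called after quantile normalization, median centring, the other filters (the upper 25% by mean retained 5 of the 10), log2(signal + 1), averaging of repeated symbols, either other variance model or the replicate block. Leaving out each sample in turn gave 0 to 1 calls among the 10, 3 to 7 among the other 70 genes (3 without *Ltbr*-/- replicate 3, 4 without Ly5.1 replicate 2) and 1253 to 1999 among all tested genes (1253 without *Ltbr*-/- replicate 3). Signs changed for *Ccnd1* (−0.042 without *Ltbr*-/- replicate 1), for *Ccnd2* (−0.080 without *Ltbr*-/- replicate 2, −0.016 and −0.015 without Ly5.1 replicates 2 and 3 and −0.0076 after quantile normalization) and for *Cdk4* (−0.037 without Ly5.1 replicate 2 and −0.14 after quantile normalization). Leaving out single samples gave −0.042 to 0.10 for *Ccnd1*, −0.080 to 0.090 for *Ccnd2* and −0.037 to 0.12 for *Cdk4*.

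Centring on the 80 ribosomal protein genes, whose median difference was 0.79, moved the median of all tested genes to −0.89 and called 12853 genes, all 10 G1 genes and 69 of the other 70, which follows from that shift. It gave −0.84 for *Ccnd1*, −0.86 for *Ccnd2*, −0.79 for *Ccnd3*, −0.77 for *Ccne1*, −0.84 for *Cdk4*, −0.71 for *Cdkn2c*, −0.66 for *Cdkn2a*, −0.55 for *Lin37*, −0.52 for *Fbxo31*, −0.59 for *Ccnb2* and −0.42 for *Cdc20*, all opposite in sign to the values reported. *Cdkn1a*, at 0.037 (adjusted p = 0.778 from limma), was the 1 of the 70 not called. Relative to the shifted median, the 10 G1 genes lay between −0.22 (*Cdk2*) and 0.18 (*Cdkn2c*).

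For the other 70 genes there were 15 calls after quantile normalization and 4 without a filter on low values, which left 71 tested. There were 0 without moderation of the variance and 1 with a fold of at least 1.5. For all tested genes there were 2160 after quantile normalization, 1539 (of 17182) without that filter, 573 without moderation and 364 with that fold. The cause of these changes was not tested, beyond the stricter rule of the last. Same-numbered samples of the genotypes had correlations of 0.0314, −0.00520 and 0.0899. So few samples cannot show whether they were pairs, and the main fit did not take the numbers as pairs. With the replicate block 1936 of all tested genes, 0 of the 10 and 9 of the 70 were called. Depth per sample is unknown.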
